A study of Homo sapiens with 42 samples.

Results

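A set of 9 genes, AMPD1, ADGRF2, A1CF, A3GALT2, AOC3, MASP2, TBX10, DENND2B and FGF18, named as silent in untreated K562 cells and higher after JTE-607 or KCl, was followed across all groups. They were chosen by their counts in the JTE-607 and KCl groups against untreated cells (CTRL), so their levels in those groups are a description with no test. They are 9 of the 58243 genes counted, and all 9 were found in both count tables. K562 is an established human cell line from chronic myeloid leukaemia, driven by the BCR-ABL1 kinase. Cells were left untreated, or received imatinib at 1 μM (IM, which blocks that kinase), JTE-607 at 5 μM (JTE, an inhibitor of the 3′-end endonuclease CPSF73) or 110 mM KCl (hyperosmotic shock). Poly(A) mRNA came from cells after 1, 6 and 18 h of IM, the same times of JTE and 1 and 3 h of KCl (27 libraries including CTRL), and nuclear RNA depleted of ribosomal RNA from cells after 1 and 18 h of IM, 1 h of JTE and 1 h of KCl (15 libraries including CTRL), with 3 biological replicates in each of the 14 groups.

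As background, most human transcripts end when a protein complex recognises a polyadenylation signal (the letters AATAAA or a close variant in the DNA) and its endonuclease CPSF73 cuts the RNA. When the cut fails, polymerase can go on past the gene, and RNA of the next gene on the same strand can be made as a continuation. Osmotic stress and inhibition of CPSF73 are both known to increase such readthrough. The members have unrelated textbook roles. AMPD1 is the muscle form of AMP deaminase, A1CF binds RNA with the APOBEC1 editing enzyme, AOC3 is a cell-surface amine oxidase, MASP2 is a serine protease of the lectin pathway of complement, TBX10 is a T-box transcription factor, DENND2B is an exchange factor for a Rab GTPase, and FGF18 is a secreted growth factor. ADGRF2 belongs to the adhesion G-protein-coupled receptor family and is annotated in GENCODE 44 as a transcribed unitary pseudogene, and A3GALT2 belongs to a family of glycosyltransferases.

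The label "silent" fitted the data for 5 of the 9 genes. In CPM (counts per 1000000 counts of a library, its total scaled by TMM), AMPD1, ADGRF2 and A3GALT2 had 1 count in all nuclear CTRL libraries together and 0 in mRNA CTRL, FGF18 had 5 and 2 counts, and A1CF had means of 0.201 and 0.0893 CPM. Just above lay AOC3, with 0.676 CPM in nuclear and 0.495 CPM in mRNA CTRL, on either side of the 0.5 CPM used here for silence. DENND2B (3.87 CPM nuclear, 0.542 CPM mRNA), MASP2 (3.66 and 2.78 CPM) and TBX10 (4.11 and 1.27 CPM) were expressed at low levels before treatment. A count of 0 in a group allows up to 3 counts, and 1 count equalled 0.0608 CPM in the smallest mRNA library.

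Every member was placed on hg38 with the nearest expressed gene upstream on its own strand, defined by a mean of at least 10 CPM in nuclear CTRL. AMPD1 (ENSG00000116748, chromosome 1, 114673090 to 114695618, minus strand) started 8850 bases after the end of NRAS, which encodes a small GTPase. FGF18 (ENSG00000156427, chromosome 5, 171419656 to 171457623, plus) started 8518 bases after NPM1, the gene of the nucleolar protein nucleophosmin. A3GALT2 (ENSG00000184389, chromosome 1, 33306766 to 33321098, minus) started 2524 bases after PHC2, which encodes a Polycomb protein. AOC3 (ENSG00000131471, chromosome 17, 42851184 to 42858130, plus) lay 7425 bases after PSME3, a proteasome activator gene, with its relative AOC2 in between. MASP2 (ENSG00000009724, chromosome 1, 11026523 to 11047233, minus) lay 7350 bases after SRM, the spermidine synthase gene. These 5 genes thus had an expressed upstream gene within 10000 bases. For 2 more the gap was longer, with ADGRF2 (ENSG00000164393, chromosome 6, 47656436 to 47697797, plus) 29172 bases after CD2AP and DENND2B (ENSG00000166444, chromosome 11, 8693351 to 8910951, minus) 36342 bases after TMEM9B.

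A1CF (ENSG00000148584, chromosome 10, 50799409 to 50885675, minus) and TBX10 (ENSG00000167800, chromosome 11, 67631303 to 67639560, minus) had no expressed upstream gene nearby. The nearest were CSTF2T, 809811 bases away, and CHKA, 413298 bases away. The count of 7 of 9 members with an expressed upstream gene within 50000 bases was the same when expression was defined by 1 CPM in nuclear CTRL or by 10 CPM in mRNA CTRL. Several members also faced or overlapped genes of the opposite strand. MASP2 ended 102 bases from the end of TARDBP, the tail of DENND2B overlapped RPL27A, ASAH2B overlapped the 3′ part of A1CF, and ENSG00000225313 overlapped A3GALT2. Counting did not use strand, so reads of such partners in exons of the member alone could be counted for the member. Where exons of both overlap, the settings named no option to assign a read pair to more than 1 gene. Pairs there could thus be lost to both.

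**Figure D1:**
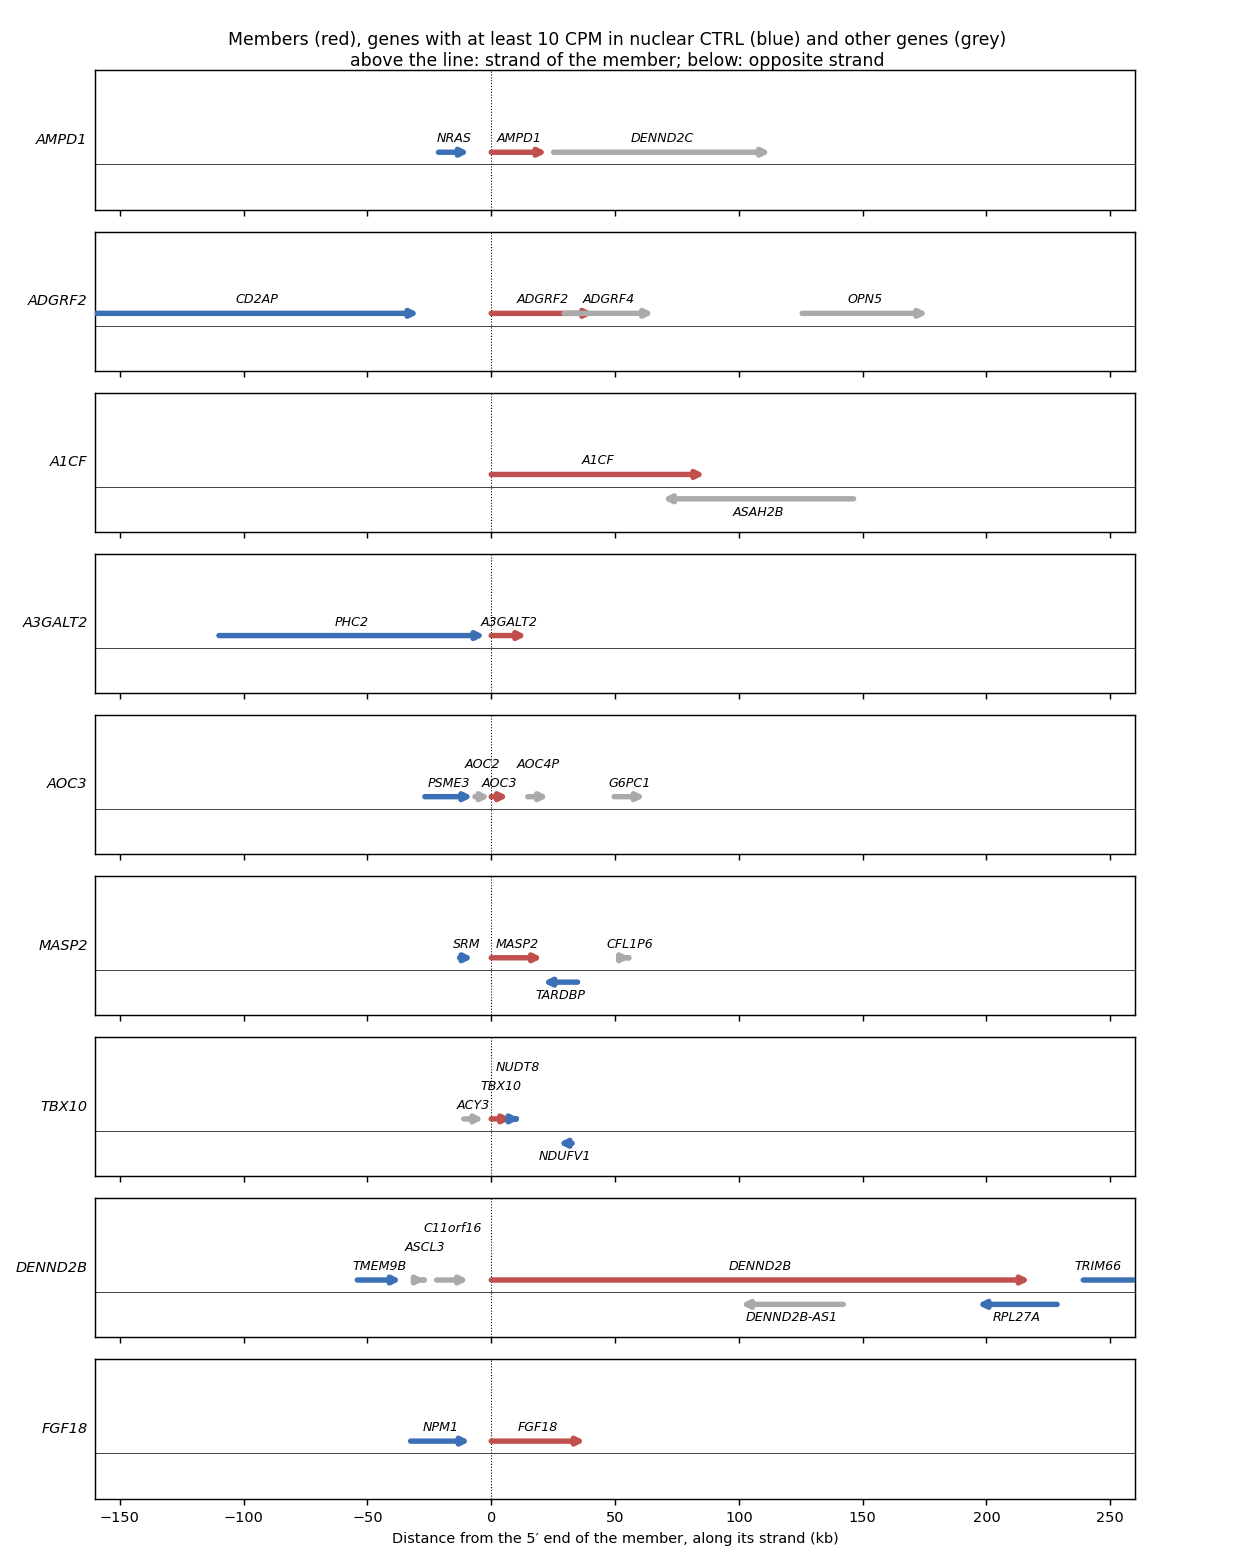
Positions of the 9 members (red) and named neighbours by distance in kb from the 5′ end of the member, along its strand; genes with at least 10 CPM in nuclear CTRL are blue and other genes grey, those above each line are on the strand of the member and those below on the other strand. For 7 members a blue gene lies within 50 kb upstream, and for A1CF and TBX10 none does (CSTF2T and CHKA lie outside the window; small RNA genes and genes without a symbol are not drawn).

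The windows that hold the polyadenylation signals of the upstream genes are shown here, since the members lie downstream of these points. Each is 30 bases of hg38, 5′ to 3′ on the strand of the gene, in the last 50 bases of the gene's canonical GENCODE 44 transcript, with the signal AATAAA in capitals.
NRAS (chr1:114704476-114704505, minus): aaaaAATAAAaactggaagttcttggctta
NPM1 (chr5:171410871-171410900, plus): attttAATAAAgtagcacggtttctattga
PHC2 (chr1:33323626-33323655, minus): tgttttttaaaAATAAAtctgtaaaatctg
PSME3 (chr17:42843727-42843756, plus): ctgaAATAAAgtttcctcatcttccacctt
CD2AP (chr6:47627231-47627260, plus): caagAATAAAtagtaaaccaaaaacattaa
The signal was searched on the transcript's strand only. It was found in 7 of the 9 upstream genes and in 63.5% of the last 50 bases of 20033 protein-coding canonical transcripts. SRM and TMEM9B held neither AATAAA nor ATTAAA in this window, and 77.4% of all transcripts held at least one of them.

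Promoter sequences of RefSeq (GRCh38.p14, 250 bases before to 50 after the start) matched 7 of the 9 members, with 11 promoters in all. Those of AMPD1 and FGF18 are printed, as both genes were high in the KCl groups and their promoters differ most in CpG number. Capitals mark TATAAA or its reverse complement TTTATA, searched on both strands, which 11.5% of all 35116 promoters held.
AMPD1 (chr1:114695497-114695796, minus): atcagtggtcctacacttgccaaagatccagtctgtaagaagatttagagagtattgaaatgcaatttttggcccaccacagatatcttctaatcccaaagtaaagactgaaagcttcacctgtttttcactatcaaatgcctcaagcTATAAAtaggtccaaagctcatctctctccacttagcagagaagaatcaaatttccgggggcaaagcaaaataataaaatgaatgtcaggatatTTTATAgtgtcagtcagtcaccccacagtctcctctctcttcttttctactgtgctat
FGF18 (chr5:171419397-171419696, plus): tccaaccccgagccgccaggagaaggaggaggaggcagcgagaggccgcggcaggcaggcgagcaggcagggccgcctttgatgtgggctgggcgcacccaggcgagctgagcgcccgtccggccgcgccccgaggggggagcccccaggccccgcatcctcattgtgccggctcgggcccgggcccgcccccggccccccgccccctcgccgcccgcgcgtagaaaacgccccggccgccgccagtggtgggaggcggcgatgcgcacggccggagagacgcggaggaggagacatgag
The AMPD1 promoter held 1 CpG and the FGF18 promoter 38, against a median of 14 over all promoters. TATAAA was present in the promoters of AMPD1 and A1CF and not in the other 9 promoters of members.

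AMPD1, ADGRF2, A3GALT2 and FGF18 were highest in KCl in both fractions. In nuclear RNA AMPD1 had 1, 0 and 0 counts in CTRL and 219, 227 and 349 in KCl 1h, or 10.6 to 16.9 CPM. No AMPD1 count was present in any nuclear JTE 1h, IM 1h or IM 18h library. The ratio of summed counts per library size, KCl 1h over CTRL, was 843.1, with an exact 95% interval of 150.9 to 33340.7 that covers counting error only. The width of that interval comes from the single count in CTRL.

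ADGRF2 followed the same course, with 1, 0 and 0 counts in nuclear CTRL and 178, 197 and 305 in nuclear KCl 1h (ratio 721.1, interval 129.0 to 28523.8). Its nuclear JTE 1h libraries held 0, 0 and 2 counts, overlapping CTRL. The patterns of AMPD1 and ADGRF2 over the 14 group means had a Pearson correlation of 1.0 on the log2(CPM + 0.5) scale. The genes lie on different chromosomes. Outside the KCl groups both had means of at most 0.0935 CPM. The correlation is therefore set by the KCl groups, which were used in the choice of the members. It is also only a description, as the points share libraries and the 2 fractions.

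FGF18 had 0, 1 and 4 counts in nuclear CTRL, 5, 2 and 4 in JTE 1h, and 118, 134 and 242 in KCl 1h (ratio 104.8, interval 44.6 to 324.1). A3GALT2 had 1, 0 and 0 counts in nuclear CTRL, 1, 2 and 4 in JTE 1h and 13, 20 and 15 in KCl 1h (ratio 50.9, interval 8.71 to 2051.9). Its KCl 1h mean was the lowest of the set in CPM (0.784 CPM). Per kb of exon it was 0.766 CPM, above A1CF (0.33 CPM). In FGF18 and A3GALT2 all 3 KCl libraries lay above all CTRL libraries, and the JTE libraries overlapped CTRL.

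The mRNA libraries separated these 4 genes from each other. FGF18 reached 2.02, 3.36 and 4.0 CPM in KCl 1h and 16.6, 21.4 and 16.1 CPM in KCl 3h, against at most 0.0551 CPM in CTRL (ratio at 3 h 499.5, interval 138.0 to 4129.6). AMPD1 reached 0.828, 1.10 and 0.419 CPM at 1 h and 1.08, 1.65 and 1.44 CPM at 3 h, which is at least 25.6-fold higher at 3 h than a floor of 3 counts over the CTRL group. ADGRF2 reached 0.442 ± 0.073 CPM at 1 h and 1.24 ± 0.624 CPM at 3 h (SD, n = 3), at least 22.9-fold higher at 3 h. In FGF18 and ADGRF2 every 3 h library lay above every 1 h library, while in AMPD1 the times overlapped. A3GALT2 stayed at 0, 4 and 6 counts in mRNA KCl 1h and 0, 1 and 0 in KCl 3h. FGF18 was therefore the only 1 of the 4 with more than 2 CPM in mRNA.

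A1CF, AOC3 and DENND2B were higher with both JTE and KCl. A1CF had 0.201 ± 0.0658 CPM in nuclear CTRL, 1.61, 1.11 and 1.77 CPM in JTE 1h (7.46-fold) and 3.31, 2.79 and 3.40 CPM in KCl 1h (15.8-fold). In mRNA it was apart from CTRL at JTE 6h, with 0.934 ± 0.31 CPM against 0.0893 ± 0.0587 CPM (10.5-fold, interval 4.23 to 33.7), and its KCl 3h libraries, with 0, 2 and 0 counts, overlapped CTRL. ASAH2B, which overlaps A1CF on the other strand, had 9.15 ± 1.1 CPM in nuclear CTRL and 10.7 ± 1.57 CPM in JTE 1h.

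AOC3 reached the highest mRNA mean of the set in CPM (25.2 CPM at JTE 6h). Per kb of exon that was 5.57 CPM, below FGF18 at KCl 3h (9.09 CPM) and TBX10 at JTE 18h (9.08 CPM). AOC3 had 0.496, 0.21 and 0.78 CPM in mRNA CTRL, 0.734, 1.45 and 3.63 CPM in JTE 1h, and 17.4, 18.8 and 39.4 CPM in JTE 6h (50.9-fold, or 36.5-fold without replicate 3 of JTE 6h). At JTE 18h it was back at 0.755 ± 0.0211 CPM, overlapping CTRL. Replicate 3 was the highest at both early times, and without it the 6 h libraries still lay far above all other groups. In nuclear RNA AOC3 had 8.74, 4.60 and 9.20 CPM in JTE 1h and 2.19, 3.16 and 5.58 CPM in KCl 1h against 0.983, 0.501 and 0.545 CPM in CTRL, 11.1-fold and 5.39-fold higher.

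DENND2B had the highest nuclear mean in CPM, though not per kb of exon (2.71 CPM in JTE 1h, against 4.24 CPM for AMPD1 in KCl 1h). Its libraries were at 37.6, 35.1 and 43.4 CPM in JTE 1h and 22.1, 29.1 and 37.6 CPM in KCl 1h against 3.26, 3.78 and 4.56 CPM in CTRL. The fold differences were 10.0 and 7.66, and the JTE and KCl libraries overlapped. In mRNA the order differed. DENND2B was highest at KCl 3h (5.63, 8.31 and 7.57 CPM, 13.2-fold over CTRL), then at JTE 1h (3.93 ± 1.44 CPM), KCl 1h (3.66 ± 1.32 CPM, 6.76-fold over CTRL) and JTE 6h (2.63 ± 0.705 CPM). The libraries of these last 3 groups overlapped each other. It was 1.56-fold over CTRL, without overlap, at JTE 18h (0.846 ± 0.194 against 0.542 ± 0.0917 CPM).

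MASP2 was higher with JTE in both fractions, and its KCl libraries overlapped CTRL. In nuclear RNA it had 16.3, 11.9 and 14.9 CPM in JTE 1h against 2.90, 3.51 and 4.56 CPM in CTRL (3.93-fold), and the KCl 1h libraries overlapped CTRL as groups (5.07 ± 2.26 CPM). Within pairs of the same replicate number, which deviated together in nuclear RNA, KCl 1h was higher in 3 of 3, at 3.95 against 2.90, 3.58 against 3.51 and 7.67 against 4.56 CPM. In mRNA it went from 2.78 ± 1.24 CPM in CTRL to 10.5 ± 3.91 CPM at JTE 1h, 19.3 ± 6.67 CPM at 6 h (6.95-fold) and 4.92 ± 0.0431 CPM at 18 h. KCl 1h had the lowest mRNA mean, 0.952 ± 0.451 CPM (0.342-fold over CTRL). Its libraries, at 0.518, 0.921 and 1.42 CPM, overlapped CTRL only through the lowest CTRL library (1.36 CPM).

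TBX10 stood apart from the other members in time. It had 1.60, 0.995 and 1.23 CPM in mRNA CTRL, 1.14 ± 0.22 CPM at JTE 1h and 0.901 ± 0.519 CPM at JTE 6h, then 12.6, 13.2 and 16.3 CPM at JTE 18h (11.0-fold). All other mRNA groups overlapped CTRL, and in nuclear RNA, where JTE 18h was not analysed here, its levels ran from 2.88 to 5.36 CPM over the 5 group means. The highest of these was KCl 1h, which overlapped CTRL as a group and was higher in 3 of 3 pairs of the same number (4.32 against 4.02, 5.40 against 4.51 and 6.36 against 3.81 CPM). TBX10 was the only member whose highest group was JTE 18h, the time at which AOC3 again overlapped CTRL.

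**Figure D2:**
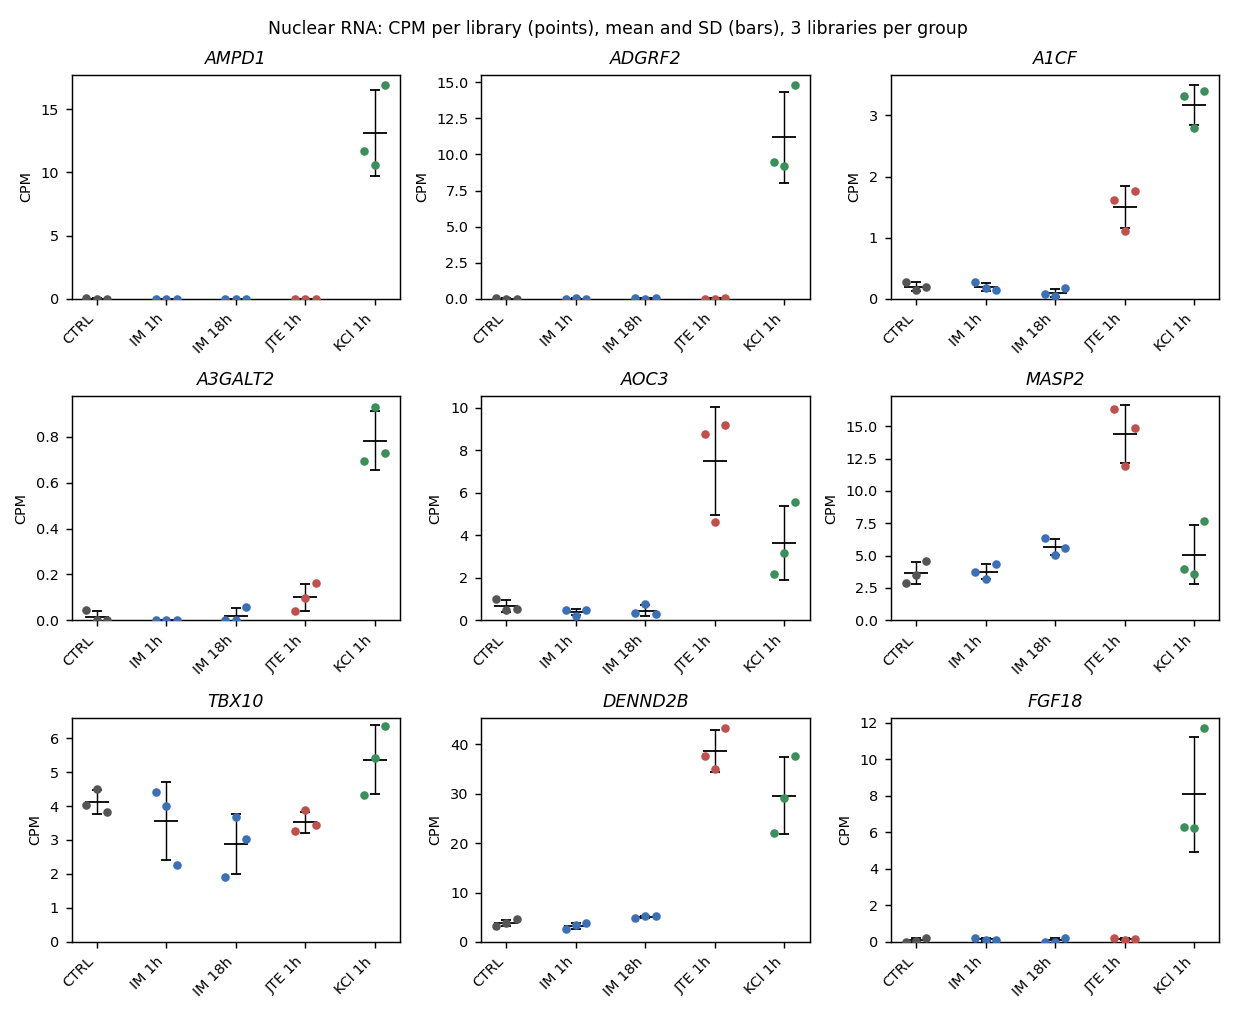
CPM of the 9 members in each nuclear RNA library (points; linear axes from 0, scaled per gene) for CTRL, IM, JTE and KCl groups, with mean and SD bars of 3 libraries. AMPD1, ADGRF2, A3GALT2 and FGF18 stand up in KCl 1h, A1CF, AOC3 and DENND2B in JTE 1h and KCl 1h, MASP2 in JTE 1h, and TBX10 in none.

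**Figure D3:**
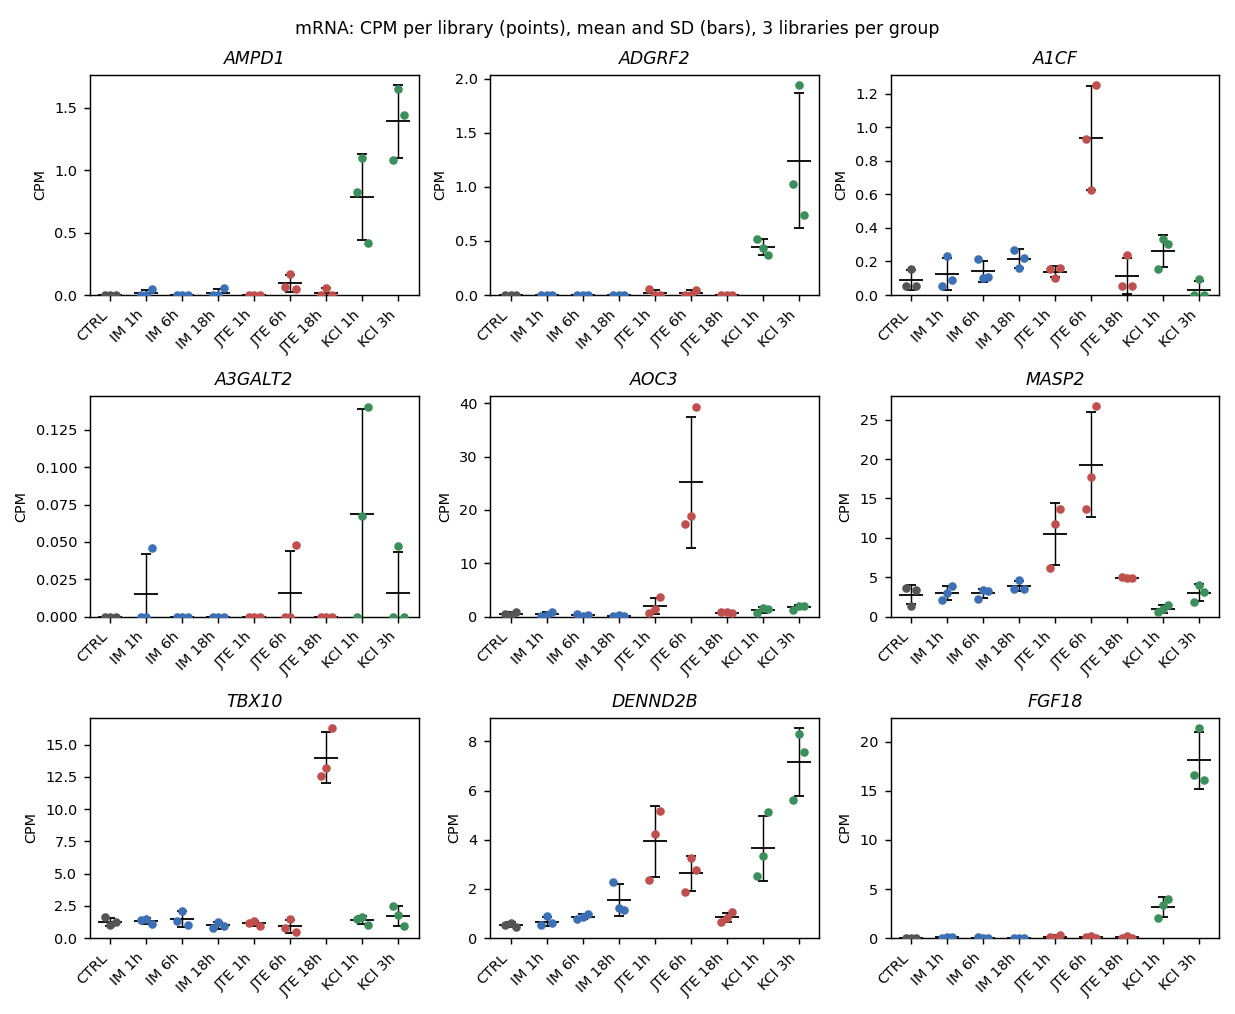
CPM of the 9 members in each mRNA library (points; linear axes from 0, scaled per gene) for the 9 mRNA groups, with mean and SD bars of 3 libraries. A1CF, AOC3 and MASP2 are highest at JTE 6h, TBX10 at JTE 18h, and AMPD1, ADGRF2, DENND2B and FGF18 at KCl 3h.

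Counting members whose 3 treated libraries all lay above all 3 CTRL libraries gave 4 of 9 in nuclear JTE 1h, where 9.54% of all genes with a count did so, and 7 of 9 in nuclear KCl 1h, where 19.9% did. In mRNA the counts were 2 at JTE 1h (2.62% of all genes), 5 at JTE 6h (9.82%), 3 at JTE 18h (8.14%), 4 at KCl 1h (7.69%) and 5 at KCl 3h (10.5%). Nothing is read from these counts, since the members were chosen from these contrasts.

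Imatinib was not used in the choice of the members, so its contrasts were tested with edgeR's quasi-likelihood test and Benjamini-Hochberg adjustment over all genes, calling an adjusted p under 0.05 with a log2 fold change beyond 0.6. The CTRL libraries in which the members had to be low are shared with that choice. The filter on low counts left 8 of the 9 members for the mRNA test (not A3GALT2) and all 9 for the nuclear test. AMPD1, ADGRF2, A1CF, A3GALT2 and FGF18 held at most 6 counts in any CTRL or imatinib library, and where they passed the filter they did so only through JTE or KCl groups. A fall or a small rise of these 5 genes with imatinib was not detectable at this depth, and nothing is read from their not being called. Their summed nuclear counts were 0 to 12 in the imatinib groups and 48 to 795 in KCl 1h. No rise of that size was present with imatinib in nuclear RNA. The test bears on MASP2, TBX10 and DENND2B in both fractions, and on AOC3 in nuclear RNA only. In mRNA AOC3 passed the filter only through JTE or KCl groups, so nothing is read from its not being called there. None of these genes was called at IM 1h in either fraction (0.0166% of all genes called in mRNA and 0.0456% in nuclear RNA), nor at IM 6h (9.94%). At IM 18h, where 30.5% of all genes were called in mRNA and 32.6% in nuclear RNA, 1 of them was called in each. DENND2B mRNA rose from 0.542 ± 0.0917 to 1.55 ± 0.634 CPM (adjusted p = 0.00286 by edgeR, log2 fold change 1.5, SE 0.38), with all 3 libraries above CTRL.

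MASP2 rose in nuclear RNA at IM 18h from 3.66 ± 0.835 to 5.67 ± 0.633 CPM (adjusted p = 0.0401 by edgeR, log2 fold change 0.64, SE 0.25). That call ended in 4 of the 6 fits without 1 library, namely those without replicate 1 or 2 of CTRL and without replicate 1 or 3 of the IM group. At IM 18h the 6 erythroid markers were higher as well, at 5189.2 to 7760.8 CPM summed in mRNA (1416.0 to 2125.5 in CTRL) and 6138.5 to 7955.1 CPM in nuclear RNA (1694.6 to 2830.5 in CTRL). The 5 liver markers summed to 28.1 to 35.8 CPM in nuclear IM 18h against 14.3 to 15.2 CPM in CTRL, with APOB and APOA1 at 0. Nearly all of that sum was CPS1, with 14.3 ± 0.488 CPM in CTRL and 30.8 ± 4.32 CPM in IM 18h. The part of these marker genes in the calls of DENND2B and MASP2 was not tested.

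The upstream neighbours were chosen by position and CTRL level and were tested in all 12 contrasts. None of the 9 was called in nuclear JTE 1h (8.52% of all genes called) or nuclear KCl 1h (23.8%). Their log2 fold changes ran from -0.16 to 0.27 with JTE, with a median of -0.06, and from -0.15 to 0.32 with KCl, with a median of -0.05. The medians over all genes tested were -0.006 and 0.02. NRAS had 170.2 ± 18.1 CPM in nuclear CTRL and 186.2 ± 30.9 CPM in KCl 1h (log2 fold change 0.13, SE 0.12), where AMPD1 changed by the counts above. For NPM1 the values were 1304.5 ± 198.0 and 1419.2 ± 270.6 CPM (0.12, SE 0.16), and for TMEM9B, upstream of DENND2B, 14.7 ± 0.761 CPM in CTRL and 14.2 ± 2.02 CPM in JTE 1h (-0.05, SE 0.15). In these 3 pairs the libraries of the upstream gene overlapped between groups. Those of the member did not, but the members were chosen for a rise in such groups, so nothing is read from that difference.

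In mRNA the neighbours were likewise not called at JTE 1h (0.851% of all genes called), JTE 6h (13.2%), JTE 18h (5.39%) or KCl 1h (5.45%). NRAS at JTE 18h passed the p-value and missed the fold threshold (adjusted p = 0.000313 by edgeR, log2 fold change -0.58, SE 0.09). At KCl 3h (11.9% called) CSTF2T, which encodes a subunit of the cleavage stimulation factor for 3′-end formation, fell from 70.2 ± 5.27 to 42.3 ± 3.71 CPM (adjusted p = 5.53e-06 by edgeR, log2 fold change -0.73, SE 0.09). It lies 809811 bases from A1CF. At IM 18h SRM, CHKA and PSME3 fell in both fractions, with nuclear log2 fold changes of -2.03 (SE 0.16), -0.91 (SE 0.10) and -1.47 (SE 0.11). Of the members that follow these genes, MASP2 rose in nuclear RNA, as given above, while AOC3 (nuclear log2 fold change -0.55, SE 0.56) and TBX10 (-0.53, SE 0.24) were not called. No neighbour was called at IM 1h or 6h by edgeR with the low-count filter. SRM at mRNA IM 6h missed the p-value (adjusted p = 0.0639 by edgeR, log2 fold change -0.71, SE 0.26) and was called with DESeq2 and without the filter.

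Levels per kb of exon allow a member to be set beside its upstream gene. In nuclear KCl 1h the mean of AMPD1 was 4.24 CPM per kb, 10.1% of that of NRAS, against 0.0126% in CTRL. ADGRF2 stood at 8.51% of CD2AP and A3GALT2 at 5.68% of PHC2 in the same group, and FGF18 at 1.10% of NPM1. With JTE 1h in nuclear RNA, DENND2B was at 58.5% of TMEM9B, compared with 5.64% in CTRL, MASP2 at 2.91% of SRM and AOC3 at 2.27% of PSME3. All of these members stayed below their upstream gene per kb, and DENND2B, whose upstream gene was the weakest of the 9, came closest to it. In mRNA at KCl 3h AMPD1 was at 0.799% of NRAS, a lower share than in nuclear KCl 1h, and FGF18 was at 1.17% of NPM1, close to its nuclear share. These fractions were normalised separately and the shares were not tested.

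Genes after or between a member and its neighbour were examined with the same test, unless stated otherwise. Along PSME3, AOC2, AOC3, AOC4P and G6PC1, all on the plus strand, AOC2 rose at mRNA JTE 6h from 1.33 ± 0.443 to 22.3 ± 8.24 CPM (adjusted p = 7.96e-08 by edgeR, log2 fold change 4.07, SE 0.39) and in nuclear JTE 1h from 3.69 ± 0.84 to 9.89 ± 2.7 CPM (1.43, SE 0.23). At JTE 6h the means per kb were 61.5 for PSME3, 8.38 for AOC2, 5.57 for AOC3 and 0.182 for AOC4P, falling with each step. The same order held in mRNA CTRL, where PSME3 was at 78.3, AOC3 at 0.109 and AOC4P at 0, so it was not particular to JTE 6h. The amine oxidase genes have similar sequences and only uniquely mapped reads were counted, so their levels are uncertain where reads could match more than one of them. In nuclear KCl 1h AOC2 was not called, with 3.69 ± 0.84 CPM in CTRL and 4.22 ± 1.08 CPM (log2 fold change 0.20, SE 0.24), while AOC3 beyond it was 5.39-fold higher, as given above. AOC4P, a pseudogene, had 1, 0 and 0 counts in nuclear CTRL and 24, 20 and 55 in KCl 1h. That was the only nuclear group through which it passed the filter, so no test is given for it. G6PC1, the next gene on, which encodes a subunit of glucose-6-phosphatase and was chosen after its values were seen, had 0 counts in nuclear CTRL and 6, 11 and 20 in KCl 1h and did not pass the filter on low counts.

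Behind ADGRF2 lies ADGRF4, another adhesion receptor gene on the same strand that overlaps its end, and then OPN5, an opsin gene (chosen after its values were seen). ADGRF4 had 1, 0 and 0 counts in nuclear CTRL and 51, 46 and 105 in nuclear KCl 1h. In mRNA it had 0 counts in CTRL and 23, 46 and 17 in KCl 3h. It passed the filter in both fractions only through KCl groups, so no test is given for it. OPN5 had 0 counts in all nuclear KCl 1h libraries and 19, 34 and 14 in mRNA KCl 3h, against 0 in mRNA CTRL and 0, 1 and 1 in mRNA KCl 1h. These counts are a description, with no test. Behind AMPD1, DENND2C rose with KCl, from 0.49 ± 0.172 to 2.60 ± 1.22 CPM in nuclear RNA (adjusted p = 1.64e-05 by edgeR, log2 fold change 2.38, SE 0.34) and from 0.526 ± 0.0862 to 2.24 ± 0.703 CPM in mRNA at 3 h (2.08, SE 0.33). C11orf16, between TMEM9B and DENND2B, rose in nuclear JTE 1h from 0.932 ± 0.0514 to 2.89 ± 0.353 CPM (adjusted p = 0.000124 by edgeR, log2 fold change 1.63, SE 0.24). TRIM66, the next gene behind DENND2B on the same strand, fell in mRNA with KCl, from 13.2 ± 0.833 to 6.89 ± 0.662 CPM at 1 h (adjusted p = 0.000486 by edgeR, log2 fold change -0.94, SE 0.16) and to 6.23 ± 1.29 CPM at 3 h (-1.08, SE 0.17), where DENND2B was higher. It was not called with JTE in either fraction or in nuclear KCl 1h (-0.44, SE 0.13), and it rose at mRNA IM 6h (0.83, SE 0.16) and IM 18h in mRNA (1.42, SE 0.16) and nuclear RNA (0.98, SE 0.13).

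**Figure D4:**
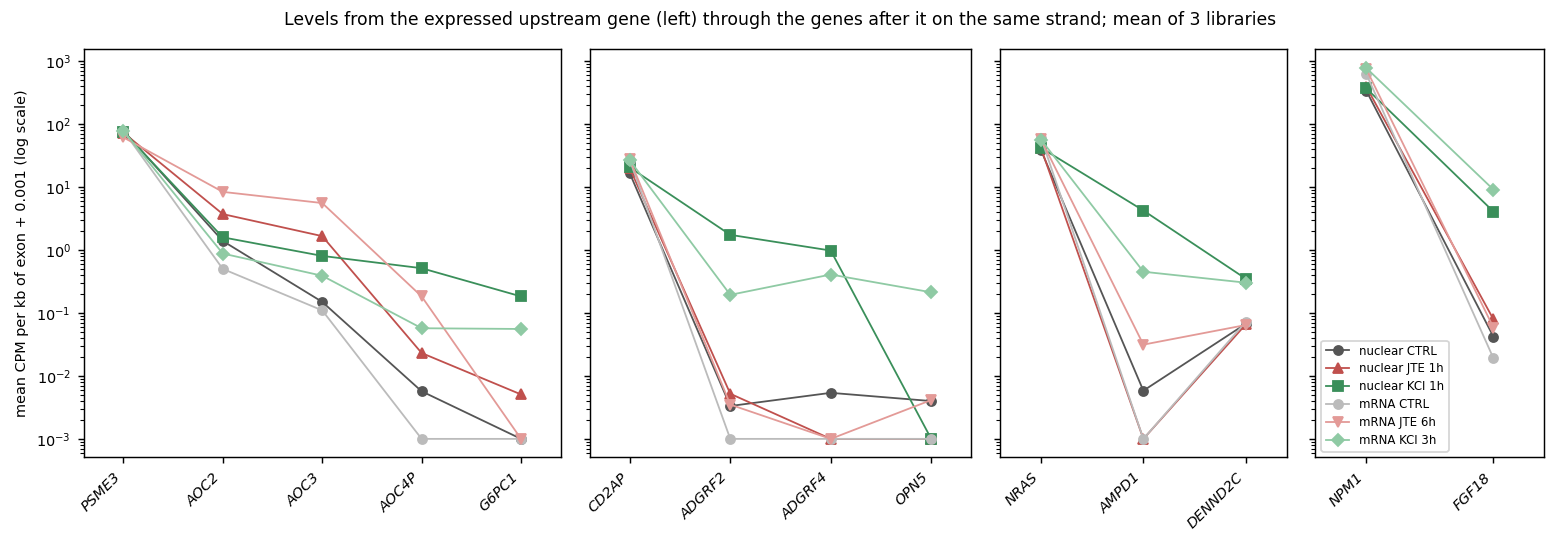
Mean CPM per kb of exon plus 0.001 (log scale) of 3 libraries for the expressed upstream gene (left in each panel) and the genes after it on the same strand, in nuclear CTRL, JTE 1h and KCl 1h and in mRNA CTRL, JTE 6h and KCl 3h. Within a fraction the upstream genes lie close together across groups, while AOC2 and AOC3 are highest at mRNA JTE 6h (8.38 and 5.57) and AMPD1 at nuclear KCl 1h (4.24).

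Around TBX10 the picture was different. NUDT8, a nudix hydrolase gene that follows it on the same strand, rose at mRNA JTE 18h from 4.07 ± 0.869 to 9.71 ± 0.566 CPM (adjusted p = 6.85e-05 by edgeR, log2 fold change 1.25, SE 0.18), the group in which TBX10 was high. The gene before it, ACY3 (chosen after its values were seen, so with no test), had 0, 0 and 2 counts in nuclear CTRL and 23, 20 and 26 in KCl 1h, where the TBX10 libraries overlapped CTRL as groups. NDUFV1, which faces TBX10 from the other strand, was not called in any of the 12 contrasts. Inside MASP2, the opposite-strand gene ENSG00000271895 rose with JTE, from 1.09 ± 0.334 to 5.97 ± 1.62 CPM at mRNA JTE 6h (adjusted p = 1.48e-05 by edgeR, log2 fold change 2.45, SE 0.34) and from 0.745 ± 0.0559 to 2.84 ± 1.05 CPM in nuclear JTE 1h (1.94, SE 0.35). Its call at mRNA JTE 1h (1.82, SE 0.35) ended in the fit of the 2 groups alone and in 3 of the 6 fits that left out 1 library (CTRL replicate 1, CTRL replicate 2 and treated replicate 2). At mRNA JTE 18h, where all MASP2 libraries lay above CTRL, it was not called (0.77, SE 0.36), and in mRNA KCl 1h it fell (-1.90, SE 0.41). TARDBP, ending 102 bases from MASP2, was not called in nuclear JTE 1h (nuclear log2 fold change 0.09, SE 0.15), and RPL27A, which overlaps DENND2B, had nuclear log2 fold changes of 0.04 with JTE and 0.01 with KCl (SE 0.09 each). ENSG00000225313, which overlaps A3GALT2, fell in nuclear KCl 1h from 8.01 ± 0.141 to 3.77 ± 0.869 CPM (adjusted p = 0.000136 by edgeR, log2 fold change -1.08, SE 0.19), the group in which A3GALT2 was high. Whether reads of either strand's partner contributed to a member was not tested.

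To set the members in context, the 6132 protein-coding genes below 0.5 CPM in nuclear CTRL, which include AMPD1, A1CF, A3GALT2 and FGF18, were divided by the distance to an expressed same-strand gene upstream. In nuclear KCl 1h all 3 libraries lay above CTRL for 75.3% of the 384 genes with such a gene within 10000 bases, for 68.0% of the 819 genes beyond that and up to 50000 bases and for 25.8% of the 4929 genes with none. The shares in nuclear JTE 1h were 42.4%, 19.2% and 10.6%. In mRNA they were 30.5%, 16.8% and 7.45% at JTE 6h and 37.8%, 32.0% and 13.3% at KCl 3h. These are descriptions across genes, which are not independent, and were not tested. A1CF belongs to the class with none, and the others to the first.

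Genes with related functions were taken as a list of 43 paralogues and partners, of which 22 passed the mRNA filter on low counts and 26 the nuclear one. In nuclear KCl 1h 12 rose and 2 fell (23.8% of all genes called), and in nuclear JTE 1h 5 rose and 0 fell (8.52%). The 12 include genes such as ADGRF4 and FCN3 that passed the filter only through KCl, while relatives with few counts in every group were not tested, so nothing is read from the KCl count. Among them were paralogues of DENND2B. DENND2D rose from 0.998 ± 0.165 to 3.30 ± 0.529 CPM with JTE and to 6.35 ± 0.445 CPM with KCl (log2 fold changes 1.73 and 2.67, SE 0.22 each). Of the FGF18 group, the related ligands FGF8 (2.12, SE 0.40) and FGF17 (3.64, SE 0.57) and the receptor FGFR1 (3.35, SE 0.38) rose in nuclear KCl 1h, while FGFR4, at 36.8 ± 4.85 CPM in CTRL, was called in neither nuclear JTE nor KCl. From the T-box family TBX6 rose from 0.519 ± 0.215 to 5.20 ± 1.63 CPM (3.33, SE 0.30) in nuclear KCl 1h. TBX19 (1.25, SE 0.20) and TBX15 (0.72, SE 0.24) rose as well. The TBX15 call was lost in the fit of the 2 groups alone and without CTRL replicate 1 or 3 or KCl 1h replicate 2. TBX1 (-0.08, SE 0.12), TBX3 (0.6, SE 0.25) and TBX18 (0.0, SE 0.11) were not called there. TBX18 fell in mRNA KCl 3h (-0.68, SE 0.15), a call lost without CTRL replicate 2 or KCl 3h replicate 3. The complement partner C2 rose in nuclear KCl 1h (1.32, SE 0.28), while C4A (0.14, SE 0.29) and C4B (0.83, SE 0.58) were not called. FCN3, a lectin-pathway recognition protein, had 0.0634 ± 0.055 CPM in nuclear CTRL and 1.51 ± 0.505 CPM in KCl 1h. As it passed the filter only through KCl, no test is given for it. ABO and GBGT1, glycosyltransferase genes related to A3GALT2, fell in nuclear KCl 1h (-0.87, SE 0.10, and -0.65, SE 0.20), the latter lost when CTRL replicate 2 or 3 or KCl 1h replicate 1 or 3 was left out. In mRNA 0 of the 22 were called at JTE 1h (0.851% of all genes called), 2 rose and 1 fell at JTE 6h (13.2%), 1 rose and 1 fell at JTE 18h (5.39%), 1 rose at KCl 1h (5.45%), and 3 rose and 1 fell at KCl 3h (11.9%). At IM 18h 5 rose and 6 fell in mRNA (30.5%), and 4 rose and 7 fell in nuclear RNA (32.6%). AOC2, ADGRF4 and DENND2C are both relatives and neighbours of members.

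The most similar patterns over the 14 group means (Pearson correlation of log2(CPM + 0.5), among 16930 genes with a symbol) were those of XKR5 for AMPD1 (r = 0.998) and for ADGRF2 (r = 0.999). For A1CF they were ELOVL2 (0.982) and CLEC3B (0.978), for AOC3 RARRES2 (0.978) and GNRH2 (0.971), for MASP2 HYPK (0.938) and GNRH1 (0.934), and for DENND2B IAH1 (0.956) and C1orf162 (0.949). For TBX10, MUC3A is given (0.943). FGF18 was most like VWFP1 and MRPL42P2 (0.995 each), and A3GALT2 was most like LINC00628 and PGAM5P1 (0.998 each). The second gene for AMPD1 was NANOGP1 and for ADGRF2 SBF1P2. Only 2 of the 18 genes were named when Spearman's correlation was used.

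Library totals ran from 16439848 to 22505595 counts in mRNA, apart from KCl 1h replicates 2 and 3 with 62953314 and 42474454, and from 16175394 to 25103205 in nuclear RNA. Erythroid markers were present in all libraries, at 1640.7 to 2792.8 CPM summed in nuclear KCl 1h, 1462.1 to 2829.0 CPM in nuclear JTE 1h, and higher at IM 18h, as given above. The 5 skeletal muscle markers were near 0 in nuclear CTRL (0.223 to 0.297 CPM summed, MYH7 at 0) and reached 0.968 to 1.48 CPM in JTE 1h and 4.10 to 6.26 CPM in KCl 1h. In KCl 1h most of the sum was ACTA1, which rose from 0.0165 ± 0.0286 to 4.17 ± 0.898 CPM, and in JTE 1h CKM (0.656 ± 0.111 CPM) was above ACTA1 (0.198 ± 0.0512 CPM). The 5 liver markers summed to 14.3 to 15.2 CPM in nuclear CTRL and 20.1 to 21.9 CPM in KCl 1h (APOB at 0). CPS1 made up most of the CTRL sum, and F2 went from 0.233 ± 0.0129 CPM in CTRL to 4.1 ± 1.9 CPM in KCl 1h. The 5 markers of endothelium and fat summed to 0.0456 to 0.099 CPM in nuclear CTRL and 1.28 to 2.43 CPM in KCl 1h. Of these, CDH5 and FABP4 were at 0 in KCl 1h and PLIN1 was at 1.7 ± 0.536 CPM. The 3 markers of other cells summed to 64.0 to 83.8 CPM in nuclear CTRL and 57.7 to 78.0 CPM in KCl 1h. In bulk RNA fewer cells with a transcript and less of it per cell cannot be told apart, and the part of these marker genes in the values of the members was not tested.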

How the data were processed

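RNA of K562 cells was sequenced in 42 libraries, 27 of mRNA and 15 of nuclear RNA, grouped by their titles. The authors deposited raw counts of read pairs per gene, made from trimmed, deduplicated reads aligned to hg38 with STAR 2.7.7a (unique alignments only, introns of at most 10000 bases) and counted over exons with featureCounts of Subread 2.0.3 without a strand option; the annotation release is not given in the sources used here. Counts therefore include antisense reads and say nothing of the bases between genes.

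The members and the gene lists were chosen with earlier results of these data known. The test was edgeR 4.0.16 (R 4.3.3; robust quasi-likelihood fit, TMM, filterByExpr) on 18095 mRNA and 21929 nuclear genes. Each fraction had 1 fit over all of its libraries, and Benjamini-Hochberg adjustment ran over all genes tested. The fit was tested on simulated data. CPM used TMM library sizes. A ratio with 10 or fewer counts in either group was taken from summed counts with an exact conditional binomial interval, and 0 counts in CTRL gave a bound at 3 counts. Replicates of each group differed by more than sampling noise (chi-square per gene 2.25 to 55.3).

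Genes named were drawn from the members, their upstream, facing, intervening and next downstream neighbours, overlapping genes of the other strand, the listed relatives and the 2 most alike genes of each member. For TBX10, 1 of these is not reported here. Alternatives were DESeq2 1.42.0, median-of-ratios scaling, no low-count filter, fits of the 2 groups alone, a replicate block, other definitions of expression and likeness, and leaving out each library. Deviations of same-numbered libraries (numbers from the titles) correlated with CTRL from 0.235 to 0.891 in nuclear RNA. Such pairs were therefore compared there for MASP2 and TBX10. The main tests did not use this pairing, and only the replicate block did. In mRNA the correlations ran from -0.368 to 0.877, and no pairs were used. The paper gives the totals of mRNA CTRL 1 and 2 (18333127 and 19031221 here) under swapped numbers. Pairing in mRNA is thus not settled, and its replicate block rests on the numbers of the titles.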

Additional observations from a re-analysis of the deposited data

Results flagged for a closer look

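ASAH2B, the gene that overlaps the 3′ part of A1CF on the other strand, moved in opposite directions in the 2 fractions after 1 h of imatinib. Its ratio of mean CPM, IM 1h over CTRL, was 0.925 in mRNA and 1.30 in nuclear RNA, and in each fraction no IM library lay within the range of the CTRL libraries. The difference between the fractions was not tested, and neither ratio was called by edgeR.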

How the results depend on the processing

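The 82 calls of neighbours, locus genes, relatives, markers and members gave 898 recomputed values in all, of which 803 kept the call, 95 lost it and 0 changed direction; 62 calls were kept in all. Upstream neighbours gave 4 calls in mRNA, between 4 and 8 when single libraries were left out, with 8 reached without CTRL replicate 2. Imatinib gave 1 mRNA call among the members and 2 without the low-count filter, and 1 nuclear call, 0 to 2 with single libraries left out. The replicate block gave 5 mRNA calls of neighbours, with SRM at IM 6h (adjusted p = 0.00816 by edgeR) added, and 3 nuclear ones, 1 and 1 of members with imatinib, and 30 and 33 of relatives (23 and 30 without it), and no call named in the report was lost under it. Leaving out single libraries moved the nuclear KCl 1h ratio of AMPD1 between 183.6 and 931.2, that of ADGRF2 between 157.0 and 791.8, of A1CF between 13.4 and 19.0 and of A3GALT2 between 11.1 and 53.6, and the mRNA KCl 3h ratio of FGF18 between 337.1 and 670.4. The lowest values of AMPD1 (183.6), ADGRF2 (157.0) and A3GALT2 (11.1) are bounds at 3 counts, reached without nuclear CTRL replicate 1, which held their only count. Of the 18 most alike genes, 2 were shared under Spearman's correlation and 11 with a pseudocount of 0.1. Reads at the least expressed members were few, so their levels in CTRL are limited by depth.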
